A study of Mus musculus with 7 samples.

Results

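Hand1, Hand2, Gata4, Gata6, Pitx1, Isl1, Tbx4, Osr1 and Pax2, 9 transcription factor genes of the lateral plate and intermediate mesoderm, were followed in RNA-seq of the posterior end of mouse embryos that lack Smchd1 and of wild-type embryos. They are the rows of the deposited table that carry these names, 9 of 25965 rows, and all 9 passed the filter on low values that kept 13997 genes. The tissue was taken behind the last somite at embryonic day 9.5, from female embryos of the FVB/N strain. Null embryos were Smchd1 MommeD1/MommeD1, homozygous for an allele described as null (4 libraries, null A to D, where the design text counts 3), and wild-type embryos were Smchd1 +/+ (3 libraries, wild-type A to C). The tissue is labelled postsomitic mesoderm. Whether a library is a single embryo is not stated, so every p below reflects only how far libraries of a group differ, which may be technical. MommeD1 is carried by every cell of the embryo, so the comparison does not separate the mesoderm from the tissues around it.

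The mesoderm beside the midline is divided into paraxial mesoderm, which forms somites, intermediate mesoderm, which forms the kidney and its ducts, and lateral plate mesoderm, which forms the heart, the body wall, the gut wall and the limb buds. Hand1 and Hand2 encode basic helix-loop-helix factors of the lateral plate and heart, and Gata4 and Gata6 encode zinc finger factors of the lateral plate, heart and gut endoderm. Pitx1 sets hindlimb identity, Isl1 acts at the start of hindlimb outgrowth, and Tbx4 is a T-box factor of the hindlimb bud and allantois. Osr1 encodes an early zinc finger factor of intermediate and lateral plate mesoderm, and Pax2 a paired-domain factor needed for the nephric duct and kidney.

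The promoters of 3 genes are printed because their genes stand for the patterns described below: Hand2 for the genes that were lowest in null libraries B and D, and Isl1 and Tbx4 for those that were lowest in wild-type library B. They are the 250 bases before a RefSeq start in GRCm38.p6; the start used for Tbx4 lies inside the gene as the deposited table gives it, so that window is not upstream of the whole gene. The windows are from the reference sequence of another strain than FVB/N, and the RefSeq table of promoters held 4 of the 9 genes. Capitals mark matches, on either strand, to the GATA motif AGATAA, its variant form TGATAA, the E-box CATCTG, the bicoid-type homeodomain motif TAATCC, the T-box motif AGGTGT and the TATA-box core TATAAA; no 2 matches overlapped.
Hand2, chr8:57320733-57320982, plus strand: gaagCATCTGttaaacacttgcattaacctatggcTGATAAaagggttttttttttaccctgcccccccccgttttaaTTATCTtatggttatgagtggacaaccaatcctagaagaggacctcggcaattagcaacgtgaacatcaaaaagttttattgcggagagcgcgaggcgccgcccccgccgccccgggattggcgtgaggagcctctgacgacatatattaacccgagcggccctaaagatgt
Isl1, chr13:116309689-116309938, minus strand: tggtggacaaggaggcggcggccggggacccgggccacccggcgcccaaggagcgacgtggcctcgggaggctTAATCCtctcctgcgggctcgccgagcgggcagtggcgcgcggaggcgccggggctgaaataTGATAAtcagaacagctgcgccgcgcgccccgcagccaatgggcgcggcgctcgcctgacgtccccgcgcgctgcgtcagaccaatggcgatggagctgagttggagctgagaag
Tbx4, chr11:85896515-85896764, plus strand: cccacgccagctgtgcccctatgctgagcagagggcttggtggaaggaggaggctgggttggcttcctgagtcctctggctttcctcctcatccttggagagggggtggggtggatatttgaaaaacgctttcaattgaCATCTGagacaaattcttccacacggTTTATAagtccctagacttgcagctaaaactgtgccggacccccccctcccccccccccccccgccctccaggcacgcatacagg
The Hand2 window held the E-box and both GATA motifs, of which the first named lay on the opposite strand. The Isl1 window held the homeodomain motif and the second GATA form, and the Tbx4 window the E-box and, on the opposite strand, the TATA-box core. Among 32851 promoter windows of this length AGATAA was found in 9.99%, TGATAA in 7.94%, CATCTG in 14.4%, TAATCC in 6.25%, AGGTGT in 11.8% and TATAAA in 12.4%. The Isl1 window was rich in G and C, at 71.2%, against 58.4% in Tbx4, 49.2% in Hand2 and a median of 52.4% over all windows.

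The libraries held 22137823 to 23847381 reads in listed genes in null tissue and 19622596 to 23548995 in wild-type tissue. Smchd1 itself was at 28.6 to 37.0 RPM (reads scaled to a common library denominator) in null libraries and 81.6 to 106 RPM in wild-type libraries, so its level followed the labels. The median log2 change of all genes tested was 0.16 on the deposited scale; "centred" values, from which the median log2 value of autosomal genes was subtracted library by library, are therefore given as well. Wild-type library B stood apart: its summed level of 10 presomitic and tailbud markers was 252 RPM, against 328 to 388 RPM in the other wild-type libraries and 368 to 459 RPM in null libraries.

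All 9 genes had reads in every library. Per length of merged exons, Pitx1 had the highest median over the 7 libraries, at 14.2 RPKM (RPM per kilobase of exon), followed by Tbx4 at 11.1, Hand1 at 8.18, Hand2 at 7.71 and Isl1 at 7.62 RPKM. Osr1 followed at 3.91, Gata6 at 2.38, Pax2 at 1.28 and Gata4 at 0.438 RPKM. In this order the ranges of any 2 neighbouring genes overlapped across libraries. Genes farther apart in it could be separate: Pitx1 ranged from 7.24 to 20.9 RPKM, Osr1 from 2.48 to 4.31, Pax2 from 0.811 to 2.03 and Gata4 from 0.107 to 0.976 RPKM. Gata4 had 28 to 260 reads per library and the other genes at least 155.

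None of the 9 genes passed at an adjusted p under 0.05 (limma on the deposited log2 values, Benjamini-Hochberg over all 13997 genes), in either direction. The background was as low, with 5 genes, or 0.0357%, called higher and 1 gene, or 0.00714%, called lower in null tissue; after centring these shares were 0.05% and 0.00714%. A limma unadjusted p under 0.05 was found for 1 of the 9, Pax2, and for 14% of all genes, so the count was near the background share. The change was below 0 for 6 of the 9 and above 0 for 3, on both scales. The background differed between the scales: 92.7% of all genes were above 0 as deposited and 42.5% after centring. The median change of the 9 was -0.37 as deposited and -0.57 after centring, beside 0.16 and -0.03 over all genes.

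**Figure D1:**
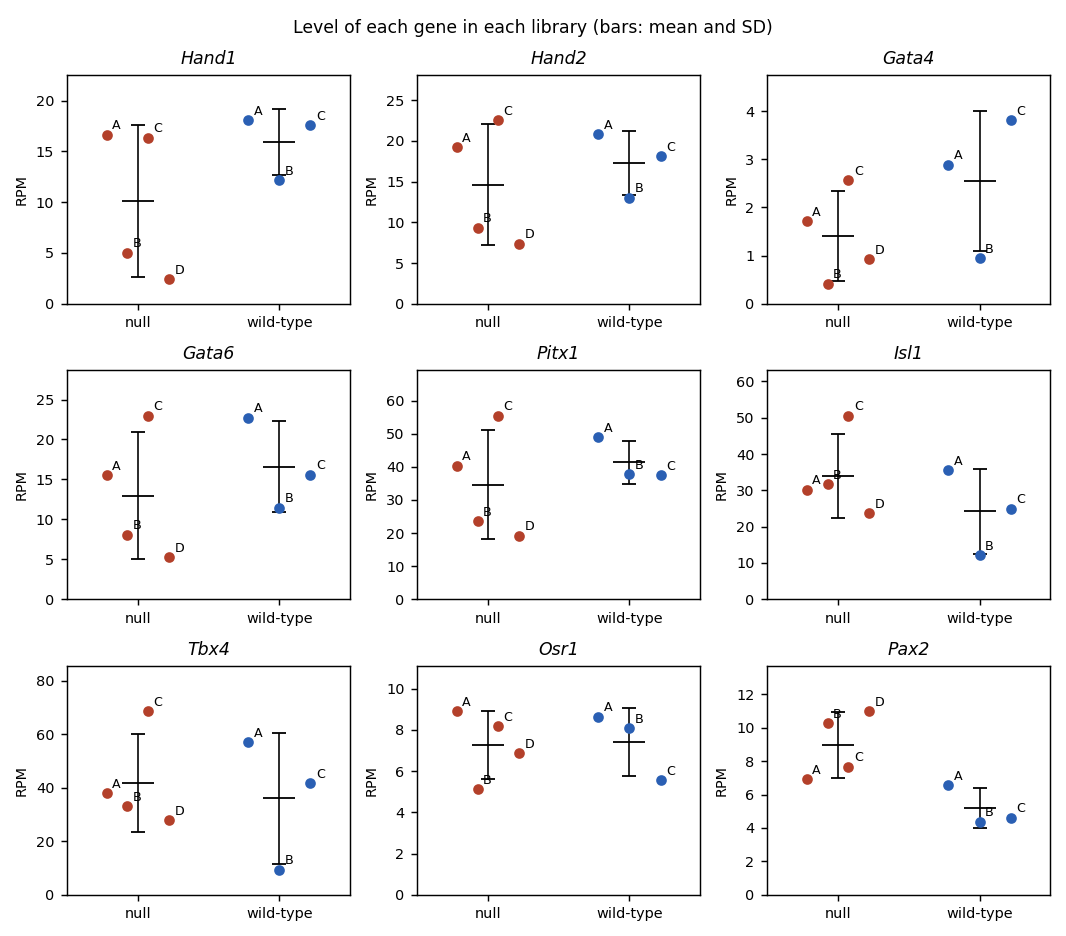
RPM of each of the 9 genes in every null library (left, red, A to D) and every wild-type library (right, blue, A to C), with the mean and SD of each group as black bars. Null libraries B and D lie lowest for Hand1, Hand2, Gata4, Gata6 and Pitx1, wild-type library B lies lowest for Isl1 and Tbx4, and the groups do not overlap only for Pax2.

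Hand1 (chromosome 11 from 57828705 to 57832818, mm10) had the largest log2 change of the 9 and the largest spread among null libraries. It was at 16.6, 5.01, 16.3 and 2.42 RPM in null libraries A to D, against 18.05, 12.1 and 17.6 RPM in wild-type libraries A to C. Null libraries A and C thus lay within the wild-type range, and B and D lay below it. The log2 change was -1.05 (SE 0.52, limma adjusted p = 0.38), or -1.24 after centring (SE 0.65, limma adjusted p = 0.375). The SD of the centred log2 values was 1.39 over the 4 null libraries and 0.31 over the 3 wild-type libraries, where the median gene had 0.103 and 0.119; the difference in spread was not tested.

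Hand2 (chromosome 8 from 57320983 to 57324517) had the same order of libraries at its low end. It was at 19.2, 9.32, 22.5 and 7.35 RPM in null libraries A to D, against 20.8, 13.0 and 18.1 RPM in wild-type libraries A to C. Null libraries B and D were again below every wild-type library, while null library C was above all of them. The log2 change was -0.37 (SE 0.32, limma adjusted p = 0.574), and -0.57 after centring. The ratio of Hand1 to Hand2 within a library, in which library scaling cancels, was -0.21, -0.90, -0.46 and -1.60 on the log2 scale in null libraries A to D, against -0.20, -0.10 and -0.05 in wild-type libraries A to C. The lowest ratios were those of null libraries D, B and C, in that order, and the ratio of null library A, -0.211, lay just below the lowest wild-type ratio, -0.205. This ratio was not tested. The exons of Hand2 share 461 bases with the antisense gene Hand2os1, and without a stated strand setting reads of the pair cannot be told apart there.

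Gata4 (chromosome 14 from 63198922 to 63271692) was the lowest of the 9 in level. It was at 1.71, 0.416, 2.57 and 0.921 RPM in null libraries A to D, against 2.88, 0.947 and 3.81 RPM in wild-type libraries A to C. Null libraries B and D were the lowest of the 7 here too, wild-type library B was close to null library D, and the groups overlapped. The log2 change was -0.94 (SE 0.57, limma adjusted p = 0.46), and -1.13 after centring. Gata6 (chromosome 18 from 11052510 to 11085635) was at 15.5, 8.09, 22.9 and 5.29 RPM in null libraries A to D, against 22.7, 11.5 and 15.6 RPM in wild-type libraries A to C. As for Hand1, Hand2 and Gata4, null libraries B and D were the lowest of the 7. Its log2 change was -0.52 (SE 0.39, limma adjusted p = 0.53), and -0.71 after centring. Its exons share 93 bases with 1010001N08Rik on the opposite strand. The heart is another site of Hand and Gata gene expression. Of its markers, Nkx2-5 had 0 reads in every null library and 0 to 1 read in wild-type libraries, where 0 reads allows up to 3 for counting error. Other heart markers did have reads. Myl7 had 36 to 48 reads in null and 12 to 20 in wild-type libraries, so its groups did not overlap. It did not pass the filter and was not tested. Tnnt2 had 36 to 105 reads over all libraries, and its groups overlapped, as did the reads of every other marker of the list. The 10 cardiac muscle markers summed to 13.7 to 22.03 RPM in null and 11.0 to 20.5 RPM in wild-type libraries. Actc1 and Tnni1 were the largest parts of this sum in every library. Of the 10 markers 3 passed the filter and 0 were called.

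Pitx1 (chromosome 13 from 55825054 to 55836192) was even among wild-type libraries and uneven among null libraries. It was at 40.3, 23.5, 55.4 and 19.2 RPM in null libraries A to D, against 49.0, 37.8 and 37.4 RPM in wild-type libraries A to C. After centring the wild-type values lay within 0.07 on the log2 scale, whereas the null values covered 1.53. Null libraries B and D were below, and C above, every wild-type library. The log2 change was -0.37 (SE 0.28, limma adjusted p = 0.53), and -0.57 after centring. Its exons share 165 bases with the antisense gene Gm47071 and 108 with Gm28760 on the same strand.

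**Figure D2:**
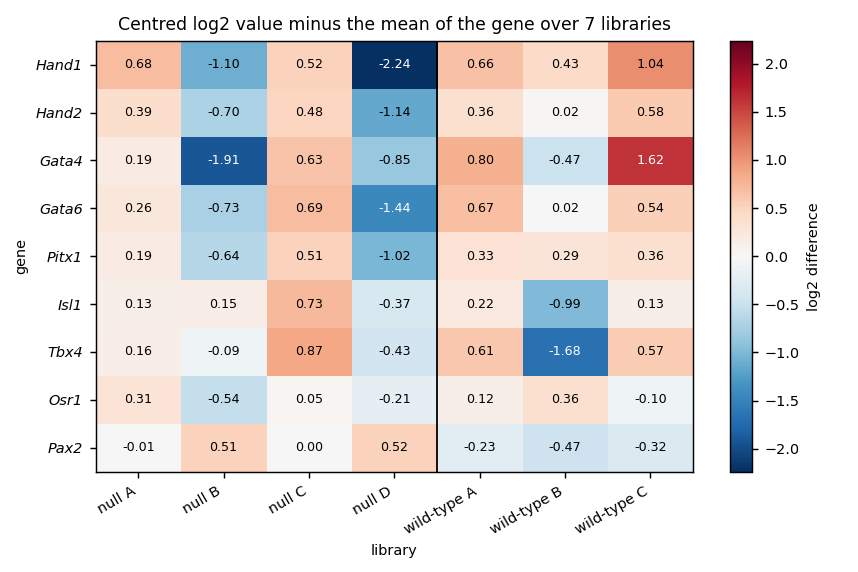
Centred log2 value of each gene in each library minus the mean of that gene over the 7 libraries, null libraries left of the line and wild-type libraries right of it. Hand1 reaches -2.24 in null library D and -1.10 in null library B, whereas Tbx4 reaches -1.68 and Isl1 -0.99 in wild-type library B, and Pax2 has its highest values, 0.52 and 0.51, in null libraries D and B.

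Isl1 and Tbx4, which act with Pitx1 in the early hindlimb field, had another lowest library. Isl1 (chromosome 13 from 116298281 to 116309688) was at 30.2, 31.7, 50.5 and 23.7 RPM in null libraries A to D, against 35.5, 12.2 and 24.9 RPM in wild-type libraries A to C. Tbx4 (chromosome 11 from 85886422 to 85916097) was at 37.9, 33.0, 68.6 and 27.8 RPM in null libraries A to D, against 57.1, 9.30 and 41.6 RPM in wild-type libraries A to C. Wild-type library B was the lowest of the 7 for both genes and null library C the highest, and the groups overlapped. The log2 change was 0.57 for Isl1 (SE 0.30, limma adjusted p = 0.413; centred 0.37) and 0.49 for Tbx4 (SE 0.47, limma adjusted p = 0.6; centred 0.29). These directions rested on wild-type library B: without it the change was 0.14 for Isl1 (centred -0.01) and -0.31 for Tbx4 (centred -0.46). The log2 ratio of Tbx4 to Pitx1 within a library was -2.02 in wild-type library B, against 0.22 and 0.15 in wild-type libraries A and C and -0.09 to 0.53 in null libraries. In that library Pitx1 was close to the other wild-type libraries (37.8 RPM, against 37.4 RPM in wild-type library C), and Tbx4 and Isl1 were below them.

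Of the 9 genes, Osr1 and Pax2 were taken for the intermediate mesoderm. Their centred values ran in opposite directions over the 7 libraries (Pearson's r = -0.76, not tested). Osr1 (chromosome 12 from 9574442 to 9581499) was at 8.90, 5.13, 8.18 and 6.87 RPM in null libraries A to D, against 8.64, 8.08 and 5.55 RPM in wild-type libraries A to C. Its groups overlapped and its means differed by less than the spread, with a log2 change of -0.04 (SE 0.22, limma adjusted p = 0.924) and -0.23 after centring. The 95% limma interval of the centred change ran from -0.69 to 0.23.

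Pax2 (chromosome 19 from 44756049 to 44838268) was the gene of the 9 with the smallest p and the only one whose groups did not overlap. It was at 6.91, 10.3, 7.67 and 11.0 RPM in null libraries A to D, against 6.54, 4.38 and 4.62 RPM in wild-type libraries A to C. No null library was as low as the highest wild-type library, a separation that 7.02% of all genes had as deposited and 6.51% after centring in the same direction. The log2 change was 0.79 (SE 0.21, limma unadjusted p = 0.00245, adjusted p = 0.18), and 0.59 after centring (SE 0.16, adjusted p = 0.312), so it did not pass over all genes. An exact permutation test (two-sided, all 35 assignments of the libraries to groups) gave p = 0.0571 for Pax2 on either scale, where the smallest p the design allows is 0.0286; for the other 8 genes it gave p from 0.257 to 0.857. The highest Pax2 values were in null libraries B and D, the pair with the lowest Hand1, Hand2, Gata4, Gata6 and Pitx1. Summed markers of the notochord and hindgut had the same separation as deposited, and overlapped between groups after centring: 9 notochord markers summed to 87.7 to 112 RPM in null and 47.0 to 77.0 RPM in wild-type libraries, and 10 hindgut markers to 146 to 172 RPM in null and 87.6 to 141 RPM in wild-type libraries. None of these markers was called. As deposited, 8 of 9 notochord and 7 of 9 hindgut genes that passed the filter had a limma unadjusted p under 0.05. After centring 4 of 9 and 5 of 9 did. Over all genes this share was 14% on either scale. The part of these markers in the Pax2 values was not tested.

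**Figure D3:**
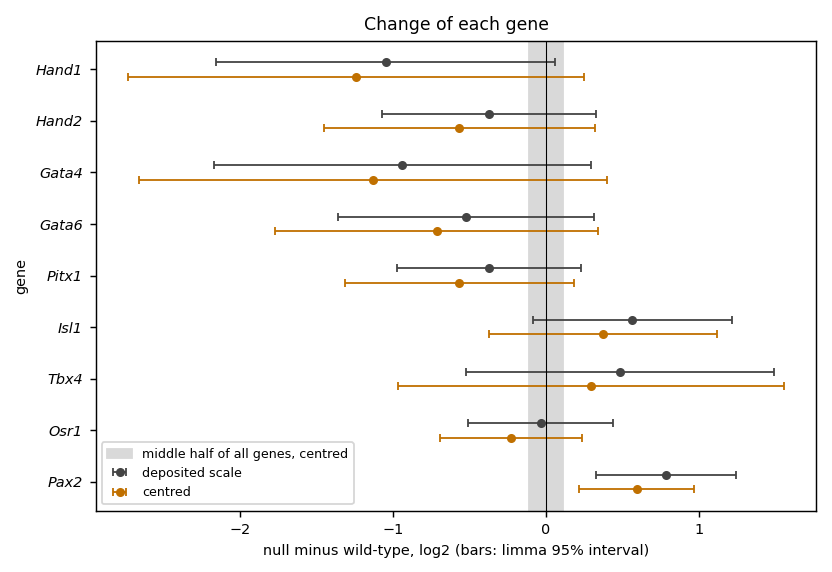
Null minus wild-type log2 change of each gene with its limma 95% interval, on the deposited scale (grey) and after centring (orange), over the range of the middle 50% of all genes after centring (shaded). The intervals of 8 genes include 0 on both scales, and that of Pax2 runs from 0.33 to 1.24 as deposited and from 0.22 to 0.97 after centring.

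The order of the libraries recurred among the 9 genes. By centred value null library D was among the lowest 2 libraries for 8 of the 9 genes, all but Pax2, and null library B for 6. Null library C was among the lowest 2 for none and highest for 4, Gata6, Isl1, Tbx4 and Pitx1. Wild-type library B was the lowest for 3, Isl1, Tbx4 and Pax2. Null libraries B and C share both the first and the last number of their column names, whose meaning is not given, and had centred Hand1 values of 2.27 and 3.89 on the log2 scale.

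Libraries were also compared within the last number of the column names. For Hand1 the centred difference of null minus wild-type was 0.26 for the number 18 (null A, wild-type B), -3.28 for 21 (null D, wild-type C) and -0.95 for 22 (null B and C, wild-type A). The sign for the number 18 was therefore the opposite of that for 21 and 22. Tbx4 gave 1.83, -1.001 and -0.22, and Pax2 gave 0.46, 0.83 and 0.49. Pax2 had a difference above 0 for each number. Only 1 of the first numbers holds both groups (null D, wild-type B and C), with centred differences of -2.97 for Hand1, 0.12 for Tbx4 and 0.91 for Pax2. With the last number as a block in limma, on the deposited scale, Pax2 was called higher (0.75, limma adjusted p = 0.00426) and Hand1 (-1.12, adjusted p = 7.25e-08), Gata4 (-0.95, adjusted p = 0.029) and Gata6 (-0.63, adjusted p = 0.0073) lower. That fit used an SD of 0.229 for Hand1, whose own residual SD was 1.19; after centring the block called none of the 9.

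Markers of neighbouring tissues also differed between libraries. After centring, 12 neural tube markers summed to 73.5, 50.5, 38.6 and 83.2 RPM in null libraries A to D, against 66.0, 132 and 53.7 RPM in wild-type libraries A to C. The 10 somite markers summed to 57.7, 48.9, 38.3 and 86.8 RPM in null libraries A to D, against 60.0, 118 and 40.0 RPM in wild-type libraries A to C. Wild-type library B was the highest and null library D the next for both lists, and null library C the lowest. Single somite markers differed. Meox1, Tcf15 and Foxc2 had the same 2 libraries at the top in this order, and Pax3 in the reverse order. Pax9 was lowest in wild-type library B, at 0.428 RPM, against 2.87 to 12.4 RPM in null libraries, and Ripply1 was lowest in null library D. Of these lists 0 of 10 neural tube and 0 of 6 somite genes that passed the filter were called. The Olig2 marker had 0 reads in null libraries B and C, and the part of these tissues in the values of the 9 genes was not tested. In bulk tissue, fewer cells of a type and less RNA per cell cannot be told apart.

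**Figure D4:**
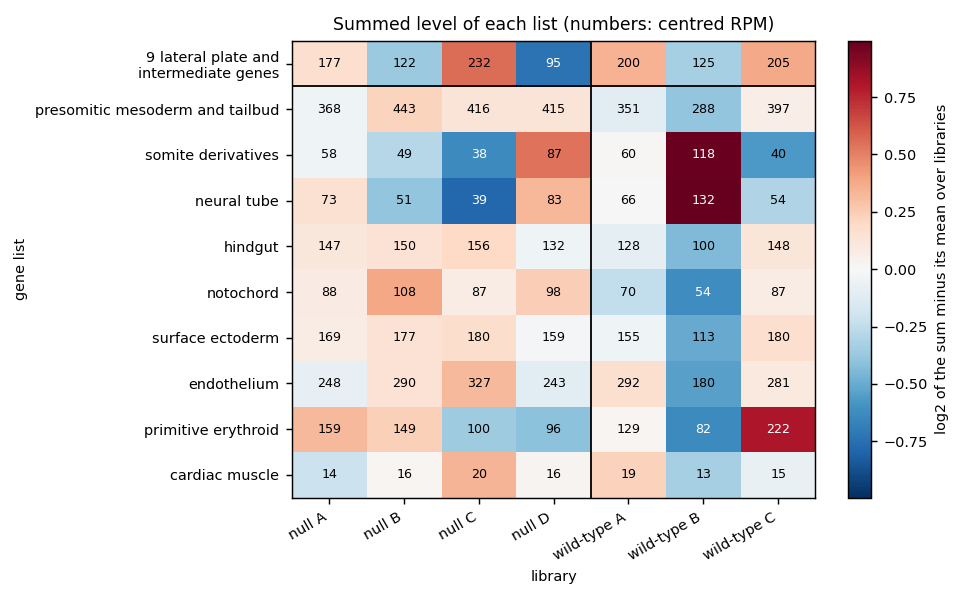
Summed centred RPM (numbers) of the 9 genes and of each marker list in each library, coloured by the log2 of the sum minus its mean over the libraries; null libraries are left of the line. The 9 genes sum to 94.7 in null library D and 232 in null library C, whereas neural tube markers are highest, at 132, in wild-type library B.

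Other genes of the same tissues gave no call. Of 20 further lateral plate genes 17 passed the filter and 0 were called, with a median log2 change of 0.01 (centred -0.19). Among those with the smallest unadjusted p values were Tbx3, a T-box factor of the limb margins (log2 change 0.97, limma adjusted p = 0.319), and the ligand gene Bmp4 (0.24, adjusted p = 0.513). Tbx3 was at 27.8 to 48.4 RPM in null libraries, and in wild-type libraries A to C at 31.4, 6.72 and 30.96 RPM. As for Isl1 and Tbx4, wild-type library B was the lowest of the 7. The lateral plate was represented in every library by Prrx1, at 25.1 to 64.7 RPM in null and 29.1 to 63.1 RPM in wild-type libraries.

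Of 13 hindlimb field genes 12 passed the filter and 0 were called, with a median log2 change of -0.01 (centred -0.20). Etv4, an ETS factor induced by FGF in the limb bud, had a change of 0.44 (limma adjusted p = 0.255), and Grem1, a BMP antagonist of the limb bud, -0.81 (adjusted p = 0.302). Grem1 was at 8.02, 5.38, 4.71 and 6.87 RPM in null libraries A to D, against 14.1, 16.5 and 5.32 RPM in wild-type libraries A to C, and the groups overlapped through wild-type library C. The zinc finger gene Sall4 had a change of 0.15 (limma adjusted p = 0.501), which fell below 0 after centring. As deposited 6 of the 12 changes were above 0 and 6 below, where 92.7% of all genes were above 0. After centring 1 was above and 11 below, where 42.5% of all genes were above 0. A centred limma unadjusted p under 0.05 was found for 1 higher and 5 lower genes, against 14% of all genes in either direction. After centring 3 had every null library below every wild-type library, as did 6.24% of all genes.

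Of 17 further intermediate mesoderm and kidney genes 14 passed the filter and 0 were called, with a median change of 0.13 (centred -0.06). Changes above 0 numbered 8 of 14 as deposited and 6 of 14 after centring, where 92.7% and 42.5% of all genes were above 0. Pax8 and Lhx1 overlapped between groups. Both were highest in wild-type library B, at 3.06 and 5.82 RPM, where Pax2 was lowest. Cited1, a transcriptional cofactor of nephron progenitors, was at 20.4 to 25.04 RPM in null and 15.5 to 18.4 RPM in wild-type libraries, with a log2 change of 0.49 (limma adjusted p = 0.18; centred 0.29). Wt1, a zinc finger factor of the urogenital ridge, was at 3.00 to 4.47 RPM in null and 5.04 to 6.404 RPM in wild-type libraries, with a change of -0.55 (limma adjusted p = 0.281; centred -0.74). The groups did not overlap on either scale, with null libraries higher for Cited1 and lower for Wt1; the shares of all genes that lay below were 0.0572% as deposited and 6.24% after centring. Bmp7 had a change of 0.56 (limma adjusted p = 0.263). Of 10 genes for partner proteins of the 9 factors 0 were called. Among those with the smallest p values were Tcf4, which encodes an E protein that pairs with Hand factors (log2 change 0.18, limma adjusted p = 0.481), and Paxip1, whose product binds Pax2 (0.11, adjusted p = 0.618). After centring these changes were -0.01 for Tcf4 and -0.08 for Paxip1, so their sign depended on the scale. All 10 centred changes were below 0, where 42.5% of all genes were above 0. A centred limma unadjusted p under 0.05 was found for 4 of the 10, all lower, against 14% of all genes in either direction. Every null library lay below every wild-type library for 2 of the 10 after centring, as for 6.24% of all genes.

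The genes most like the mean of the 9, by Pearson's r of centred values over the 7 libraries among 12567 genes, were Pmp22 (r = 0.988), Igf2r (0.988), Rbms1 (0.976), Rab40c (0.974), Sertad4 (0.972), Prdm6 (0.968), Foxf2 (0.965) and Slc38a4 (0.965). These values describe 7 points chosen from many genes, which share library and depth, and carry no test. The 9 genes did not share 1 profile. With the mean of the others, r was 0.79 to 0.93 for Hand1, Hand2, Gata4, Gata6 and Pitx1. It was 0.57 for Tbx4, 0.51 for Isl1, 0.32 for Osr1 and -0.70 for Pax2. Prdm6 was at 3.38, 1.98, 3.56 and 1.55 on the centred log2 scale in null libraries A to D, against 3.62, 2.83 and 3.41 in wild-type libraries A to C. Its lowest libraries were null D and B, which were also the lowest for the mean of the 9. Because Prdm6 was chosen by its likeness to that mean, this match is no separate result.

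Single libraries decided whether any of the 9 was called. Without wild-type library B, on the deposited scale, Hand1 (-1.23, limma adjusted p = 4.86e-06), Gata4 (-1.54, adjusted p = 0.00212) and Gata6 (-0.76, adjusted p = 0.0181) were called lower, where 47 of all genes were. In that fit limma replaced the spread of each gene by a common trend: it used an SD of 0.242 for Hand1, whose own residual SD was 1.18. With a robust prior, chosen after seeing the data, the same fit called Gata4 only (adjusted p = 0.0107), with an SD of 0.419 used for an own SD of 1.00, and Hand1 had an adjusted p = 0.896. After centring without wild-type library B none of the 9 was called. Without wild-type library A, on the deposited scale, Pax2 was called higher (0.97, limma adjusted p = 0.025), along with 4203 of all genes.

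**Figure D5:**
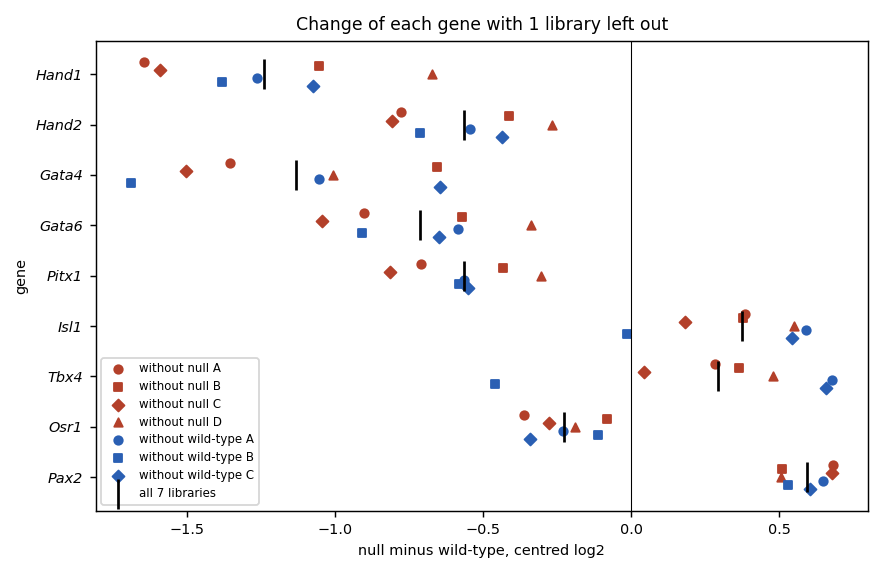
Centred null minus wild-type change of each gene with all 7 libraries (black bars) and with 1 library left out (symbols; red for a null and blue for a wild-type library). Hand1 runs from -1.65 to -0.67 and Pax2 from 0.51 to 0.68, and Isl1 and Tbx4 cross 0 when wild-type library B is left out.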

How the data were processed

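RNA-seq was analysed from the table the authors deposited, which holds log2 RPM values per library, per the file headers. The submitters' processing notes name build mm10 and the tools TopHat2 2.0.12, edgeR and bcl2fastq, with no role; how reads were counted, and whether by strand, is not given. Whole reads were recovered: 100% of values under 1000 reads lay within 0.01 of a whole number, and a gene without reads is listed at 0.9 read. Column names give a genotype but no sample number, so libraries were assigned to groups and lettered in file order. No library was a copy of another of its group (chi-square divided by degrees of freedom 9.03 to 22.3).

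Genes above 0 on the log2 scale in 3 or more libraries were tested with limma 3.58.1 in R 4.3.3 (intensity trend, Benjamini-Hochberg at 0.05), which was tested on simulated data. Exon lengths came from GENCODE M21 and promoters from RefSeq. Python 3.11.15 drew the figures. The genes and lists were chosen with earlier results of these data known. Named were the 9 genes, from each further list any gene called or else the 3 with the smallest p (some of which are not reported here), and the 8 genes most like the mean of the 9 whose log2 values average 1 or more; markers at 0 reads were named too, and Prrx1 was chosen after its values were seen. Alternatives were centring, other filters, a pseudocount of 1 RPM, voom on recovered reads, no trend, a block on the last number of the column names, and leaving out each library; the robust prior and the exact permutation test were added after seeing the data.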

Additional observations from a re-analysis of the deposited data

How the results depend on the processing

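No paired analysis was possible because the columns of the table carry no replicate number of the labels. Over the 7 libraries 5 genes were called higher and 1 lower. The count of higher genes was 12 with the stricter filter, 11 with a pseudocount of 1 RPM, 2 without the intensity trend and 52 with a robust prior; the cause was not tested. Leaving out 1 library gave 1 to 4203 higher and 1 to 47 lower genes (3 to 9 higher after centring), with 0 to 1 of the 9 genes called higher and 0 to 3 lower, and 0 to 5 genes of the further lists called higher and 0 to 2 lower. The block on the last number of the column names called 698 higher and 44 lower genes, of the 9 genes 1 higher (Pax2) and 3 lower (Hand1, Gata4, Gata6), and of the further lists 3 higher and 2 lower. With the robust prior that block called 682 higher and 17 lower, of the 9 genes 1 higher and 0 lower, and of the further lists 2 higher and 1 lower. Leaving out wild-type library B with the robust prior gave 83 higher and 14 lower genes, 1 of them among the 9. After centring, the block called 7 higher and 1 lower and none of the 9. The mean change of the 9 genes, -0.16 as deposited and -0.35 after centring, moved by less than the spread between libraries, but on the deposited scale it was 0.034 without null D and 0.059 without wild-type A. Leaving out 1 library, deposited or centred, moved Osr1 between -0.36 and 0.12 (above 0 as deposited without null B, 0.12, wild-type A, 0.087, or wild-type B, 0.039), Tbx4 between -0.46 and 0.998 (below 0 without wild-type B, -0.31 as deposited) and Isl1 between -0.012 (centred, without wild-type B) and 0.908. Of the 26 alternatives, those of the filter, the trend or the prior cannot move a change itself. All 26 draw on the same 7 libraries. With that limit, Hand1, Hand2, Gata4, Gata6, Pitx1 and Pax2 kept their sign in all 26. Their size did depend on single libraries: leaving out 1 gave, as deposited, -1.43 to -0.50 for Hand1, -0.63 to -0.094 for Hand2, -0.87 to -0.165 for Gata6 and -0.64 to -0.133 for Pitx1 (each nearest 0 without null D), -1.54 to -0.45 for Gata4 (nearest 0 without null B) and 0.68 to 0.97 for Pax2. Gata4, with 28 reads in null library B, is the gene most limited by depth.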
